A study of Nannochloropsis oceanica strain IMET1 with 6 samples.

Results

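In the marine alga Nannochloropsis oceanica strain IMET1, 138 of 9552 genes were of moderate abundance in the wild type and at least 3 times as abundant in the insertional mutant HLM23. A gene belonged to this set when its WT mean was at least 50 and below 1000 normalised reads, its HLM23 mean was at least 3 times the WT mean, and its lowest HLM23 value exceeded its highest WT value. These values chose the genes, so the rise itself is described here without a test. The normalised read count is the number of reads assigned to a gene, divided by the authors by 1 scaling factor per library. Of the 5162 genes with a WT mean in the same range, the 138 were 2.67%. The condition on overlap removed no gene, since all 138 genes that met the other limits also met it. In the same WT range, 25.3% of all genes had every HLM23 value above every WT value, and nothing is read from the set's full count, which the rule fixed.

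HLM23 carries an insertion in the gene NO06G03670, is labelled as a loss of function mutant of it, and was set against the wild type (WT). The 3 HLM23 libraries (genotype NO06G03670-) and the 3 WT libraries came from flasks with 25 ml of artificial sea water with nutrients, started at an optical density of 0.1 and kept at 25 °C in air enriched to 0.2% CO2. Light was given at 600 μmol photons per square metre per second for 16 h a day, and cells were collected on day 3, 1 h before the dark phase. HLM23 is 1 mutant line, so effects of the disrupted gene and of any other change in that line cannot be told apart, and the labels do not say whether the replicates were separate cultures.

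Nannochloropsis is a single-celled eustigmatophyte alga with a plastid derived from a red alga, and it is known for storing oil as triacylglycerol. NO06G03670 is described in the literature as coding for a transcription factor of the APETALA2 type. Proteins of this type bind DNA through a conserved domain and are known from plants, where members such as WRINKLED1 of Arabidopsis raise the transcription of genes for glycolysis and fatty acid synthesis. The deposited table gives no description for any gene, and none of its IDs was found in a reference table of 160 organelle genes, so no function is given to the genes below. Except for NO24G01820, NO15G03270 and the disrupted gene, they are called by chromosome and position as the deposited table lists them; no source used here names the genome build.

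The libraries held 15331673 to 18711316 gene reads in HLM23 and 16210183 to 16406373 in the WT. The disrupted gene itself, on the minus strand of chromosome 6 (1004518 to 1013731), had 1073, 982 and 777 normalised reads in HLM23, against 2164, 1664 and 1682 in the WT, so it was reduced but still transcribed. In most of the set, HLM23 replicate 2 and WT replicate 2 lay closer to the other strain than the other libraries of their strain did. Without both of them the rule gave 221 genes, of which 125 were among the 138. Among the 138 genes, the fewest reads behind any single value were 25.

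**Figure D1:**
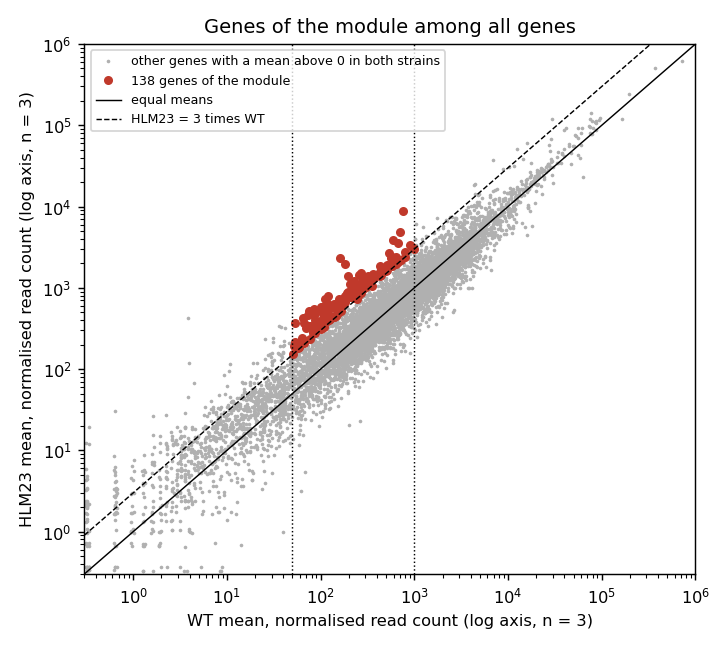
Mean normalised read count of each gene in HLM23 (vertical, log axis) against the WT (horizontal, log axis), each over 3 libraries. The 138 genes of the set (red) lie above the dashed line of 3 times the WT mean and between the dotted lines at 50 and 1000, and their HLM23 means run from 154 to 8705.

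Together the 138 genes made up a small share of the transcriptome in either strain. They took 1.03%, 0.763% and 0.792% of all normalised reads in HLM23 replicates 1, 2 and 3, against 0.168%, 0.314% and 0.184% in WT replicates 1, 2 and 3. The means were 0.860% ± 0.144 for HLM23 and 0.222% ± 0.0802 for the WT (SD, n = 3 each). The lowest HLM23 library thus held more than the highest WT library, as the rule requires of each gene. The 5 most abundant genes of the set made up 16.6% of its reads in HLM23, so no single gene carried the sum.

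In HLM23 the means of the set ran from 154 to 8705 normalised reads with a median of 731, and in the WT from 50.9 to 995 with a median of 175. The median ratio was 3.79, with quartiles at 3.324 and 4.4997. Most genes lay near the limit: 80 had a ratio of 3 to 4, 34 a ratio of 4 to 5, 19 a ratio of 5 to 7, and 5 a ratio above 7. Membership fell with WT abundance, from 7.32% of the 451 genes with a WT mean of 50 to 100 to 1.05% of the 1991 genes with a WT mean of 500 to 1000. The median ratio of the members was 3.817 in the first of these bands and 3.499 in the last. The rule cut all ratios off at 3 and most members lay near it, so nothing is read from this likeness. The WT mean is also part of the ratio that chose the genes, so nothing is read from the fall in membership.

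Per kilobase of gene length, the set lay in the lower part of the range of all genes in the WT and near its middle in HLM23. A rise in rank follows from the rule, which chose on the same reads. The FPKM, reads per kilobase of gene scaled to library size, had a median of 23.1 over the 138 genes in HLM23 and of 5.91 in the WT. Ranked by FPKM among all 9552 genes, the median member stood at the 60.1st percentile in HLM23 and at the 23.6th in the WT. For all genes in the same WT range the median ranks were 42.2 in HLM23 and 40.9 in the WT. For 23 of the 138 genes the authors' FPKM used another length than the one listed, so these ranks are approximate.

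The largest ratio belonged to NO24G01820, found on chromosome 24 (minus strand, 479875 to 482371). Its libraries gave 2508, 2617 and 1813 normalised reads in HLM23, against 130, 187 and 164 in the WT. Its HLM23 mean was 14.4 times the WT mean, and its lowest HLM23 value was 9.71 times its highest WT value, the widest gap in the set. Unlike in most of the set, HLM23 replicate 2 was its highest library, which held for only 3 of the 138 genes. Its FPKM was 64.6 ± 16.7 in HLM23 libraries and 4.77 ± 0.855 in WT libraries (SD, n = 3 each).

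The most abundant member in HLM23 was the gene on the minus strand of chromosome 2 (552468 to 555793), with 9414, 6081 and 10620 normalised reads in HLM23, against 264, 1416 and 565 in the WT. Its ratio of means was 11.6, and its WT libraries differed several-fold among themselves, with WT replicate 2 the highest. The gene on the plus strand of chromosome 9 (73020 to 74454) had 2580, 1479 and 1888 in HLM23, against 79.8, 348 and 115 in the WT, with a ratio of 11.0 and the same order of the WT libraries. These genes and NO24G01820 were the 3 of the set with a ratio of at least 10.

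Next by ratio was the gene on the minus strand of chromosome 5 (1338009 to 1341864), which overlaps a neighbouring gene by 2 bases. It had 1538, 951 and 1675 normalised reads in HLM23, against 88.2, 371 and 132 in the WT, a ratio of 7.05. A short gene with no part of its span outside the listed length, on the plus strand of chromosome 11 (916260 to 917021), had 5886, 3939 and 4810 in HLM23, against 443, 887 and 756 in the WT, a ratio of 7.01. It held the highest FPKM of the set, at 375 ± 77.0 in HLM23 libraries and 57.6 ± 18.7 in WT libraries (SD, n = 3 each). In both genes WT replicate 2 was again the highest of the WT libraries.

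**Figure D2:**
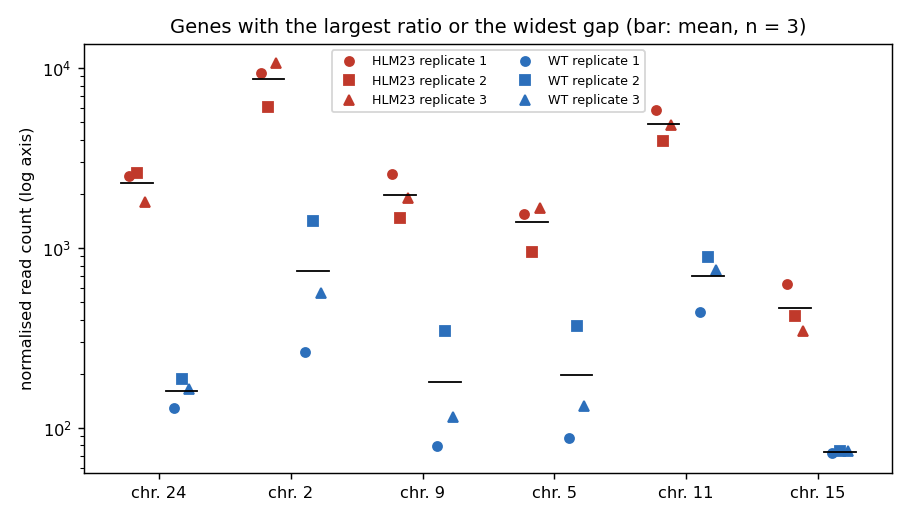
Normalised read count (log axis) in each library for the 6 genes with the largest ratio of means or the widest gap, named by chromosome. HLM23 libraries are red and left, WT libraries blue and right, and bars are means of 3. In no gene do the strains overlap, and WT replicate 2 (square) is the highest WT library in each of the 6, by a margin hardly visible in the chromosome 15 gene.

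NO15G03270, on the plus strand of chromosome 15 (955861 to 957195), was the steadiest of these genes in the WT. It had 630, 421 and 345 normalised reads in HLM23, against 72.3, 74.7 and 74.6 in the WT, or 465 ± 148 in HLM23 libraries and 73.9 ± 1.39 in WT libraries (SD, n = 3 each). Its lowest HLM23 value was 4.61 times its highest WT value, and its ratio of means was 6.30. The spread in this gene lay within HLM23, where replicate 1 was the highest.

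Other abundant members had smaller ratios. The gene on the plus strand of chromosome 20 (813727 to 817325) had 4904, 3360 and 3223 normalised reads in HLM23, against 342, 1028 and 395 in the WT, a ratio of 6.51. The gene on the minus strand of chromosome 18 (329450 to 332845) had 4475, 2806 and 3531 in HLM23, against 316, 1103 and 580 in the WT, a ratio of 5.41. For the gene on the minus strand of chromosome 24 (109109 to 113801) the values were 4292, 3055 and 2880 in HLM23, against 699, 1191 and 801 in the WT, a ratio of 3.80. In all of these HLM23 replicate 1 was the highest HLM23 library and WT replicate 2 the highest WT library.

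The longest member, on the plus strand of chromosome 20 (157141 to 167216), has a listed length of 9214 bases and overlaps a neighbouring gene by 9 bases. It had 1538, 1042 and 1219 normalised reads in HLM23, against 238, 425 and 209 in the WT, a ratio of 4.35. The shortest, at 354 bases on the plus strand of chromosome 12 (529206 to 529559), had 169, 115 and 178 in HLM23, against 56.3, 63.2 and 33.3 in the WT, a ratio of 3.03. The shortest gene also had the lowest means of the set in both strains.

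The distance between the strains varied among members: the lowest HLM23 value was at least 2 times the highest WT value in 93 of 138 genes and at least 3 times in 13. The median of this gap was 2.18 in the set and 0.754 over all genes in the same WT range. The rule chose on these values, so nothing is read from the counts. The 5 narrowest gaps ran from 1.27 to 1.46. The narrowest belonged to the gene on the minus strand of chromosome 12 (980138 to 983154), with 545, 388 and 205 normalised reads in HLM23, against 70.4, 161 and 105 in the WT. The gene on the minus strand of chromosome 23 (443088 to 444943) had 267, 175 and 154 in HLM23, against 23.5, 117 and 29.2 in the WT. The gene on the minus strand of chromosome 16 (199512 to 202337) had 513, 407 and 238 in HLM23, against 53.5, 172 and 126 in the WT.

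On the minus strand of chromosome 24 (327234 to 329397) another narrow member had 553, 373 and 190 in HLM23, against 77.0, 131 and 59.5 in the WT. The last of the 5, on the plus strand of chromosome 3 (922719 to 923839), had 281, 163 and 263 in HLM23, against 30.03, 111 and 88.7 in the WT. In all 5 genes the values closest together were WT replicate 2 and either HLM23 replicate 2 or HLM23 replicate 3.

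The limit of 3 cut through a continuous range of ratios. Just inside it were the gene on chromosome 8 (700226 to 703728) at 3.01, the shortest gene at 3.03 and the gene on chromosome 10 (746231 to 750228) at 3.03. Just outside were the gene on chromosome 7 (926084 to 927517) at 2.99, the gene on chromosome 27 (434586 to 440204) at 2.99 and the gene on chromosome 23 (445294 to 446432) at 2.97. At the lower WT limit, the shortest gene and the gene on chromosome 5 (127067 to 129470) were inside with WT means of 50.9 and 51.8, and the genes on chromosome 6 (788748 to 791805) and chromosome 15 (843746 to 845399) were outside with 47.5 and 46.9. At the upper limit, the genes on chromosome 27 (208422 to 213410) and chromosome 5 (1315750 to 1320154) were inside with WT means of 995 and 936, and the genes on chromosome 15 (372008 to 376036) and chromosome 4 (532699 to 535320) were outside with 1011 and 1021.

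Within each strain, the genes of the set tended to be high or low in the same libraries. HLM23 replicate 1 was above HLM23 replicate 2 in 134 of 138 genes (97.1%), against 52.7% of all genes in the same WT range. WT replicate 2 was the highest WT library in 127 of 138 genes (92.0%), against 33.9% of genes in that range. WT replicate 1 was the lowest WT library in 102 of them (73.9%), against 34.5% in that range. HLM23 replicate 3 was less uniform, being the highest HLM23 library in 43 genes and the lowest in 52.

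Relative to the mean of WT replicates 1 and 3, WT replicate 2 stood at a median of 1.69 in the set and of 1.01 over all genes in the WT range. It exceeded that mean more than 2-fold in 41 of 138 genes (29.7%), against 1.32% of genes in the range. On the log2 scale WT replicate 2 lay at a median of 35.1% of the way from WT replicates 1 and 3 to HLM23 replicates 1 and 3, and HLM23 replicate 2 at 84.7%. In the 65 genes that met the mirrored rule (HLM23 mean of 50 to 1000, WT mean at least 3 times as high, no overlap) the corresponding medians were 31.7% and 82.5%. In both lists these medians lay nearer to their own strain, shifted towards the other. No such position was computed for HLM23 replicate 3, so for HLM23 the shift is not shown to be particular to replicate 2. HLM23 replicate 3 was above HLM23 replicate 2 in 62.3% of the set and in 52.3% of the mirrored list. HLM23 replicate 1 was above HLM23 replicate 3 in 68.8% and 4.62%. Whether the libraries numbered 2 came from another harvest or culture is not given in the labels, and their part in the spread was not tested.

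**Figure D3:**
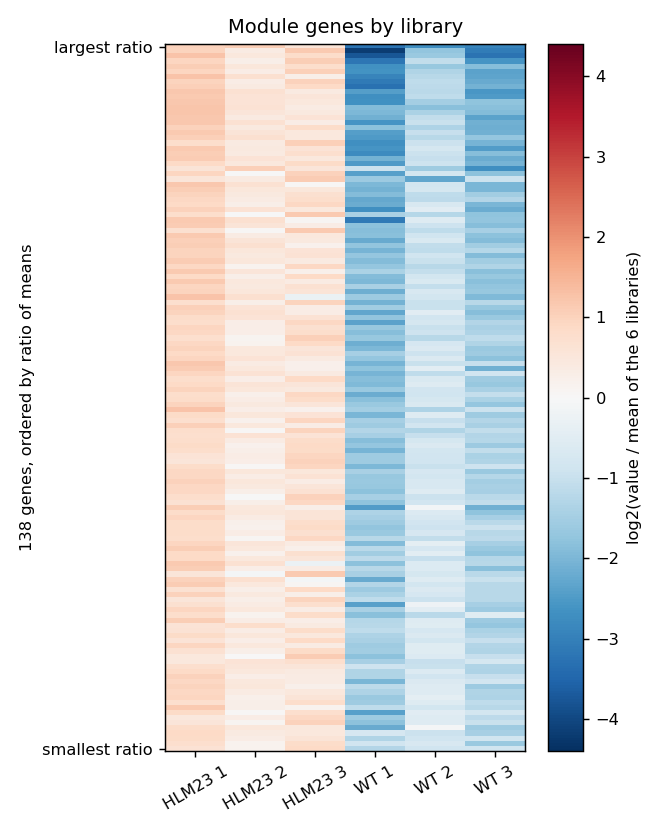
Each row is 1 of the 138 genes, ordered by the ratio of means, and each column a library; colour gives log2 of the value over the gene's mean of 6 libraries (red above, blue below). The HLM23 columns are red in nearly every row and the WT columns blue, with WT replicate 2, and on the whole HLM23 replicate 2, paler than the other columns of their strain.

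The spread within strains was read next to that of all genes in the same WT range, members included. The lists differ in abundance, with a median WT mean of 175 in the set and 400 in the range. The median coefficient of variation (SD as a percent of the mean) was 23.1% in HLM23 and 37.9% in the WT over the 138 genes. Over all genes in the same WT range it was 17.4% in HLM23 and 14.7% in the WT. The rule chose genes on the means and overlap of these same values, so the spread is not free of that choice. How far the choice shaped the spread was not tested.

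The direction was also read in libraries left out of the choice, each split using the same 6 libraries that gave the set. The rule was applied to 2 HLM23 and 2 WT libraries in each of the 9 possible ways, and the genes chosen were read in the left-out HLM23 and WT library. Depending on the libraries, 80 to 221 genes were chosen, and 95.5% to 100% of them were higher in the left-out HLM23 library than in the left-out WT library. Over all genes in the WT range this share was 48.4% to 53.4%. Most of the chosen genes were themselves members, from 125 of 221 without both libraries numbered 2 to 77 of 80 without both numbered 1. For members the rule had already set every HLM23 value above every WT value, so nothing is read from these shares. The 9 readings share libraries with each other and compare 1 library with 1 library, so they carry no p-value.

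The size of the rise in left-out libraries depended on which were left out. With HLM23 replicate 1 and WT replicate 1 left out, the median ratio between them was 6.998 over 80 genes, and 96.2% of these reached 3 times. With both libraries numbered 2 left out, 220 of 221 genes were higher in HLM23 replicate 2 than in WT replicate 2, but the median ratio was 2.06 and 23 genes (10.4%) reached 3 times, against 0.508% of all genes in the range. Whenever WT replicate 2 was the left-out WT library, the median ratio lay between 2.06 and 3.03, and otherwise between 3.41 and 6.998. Against WT replicate 2, 10.4% to 50.9% of the chosen genes reached a ratio of 3, and 0.508% to 2.09% of the range. Against WT replicates 1 and 3 the shares were 63.3% to 96.2% of the chosen genes and 3.21% to 5.73% of the range. The share of the range thus also depended on the left-out libraries.

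**Figure D4:**
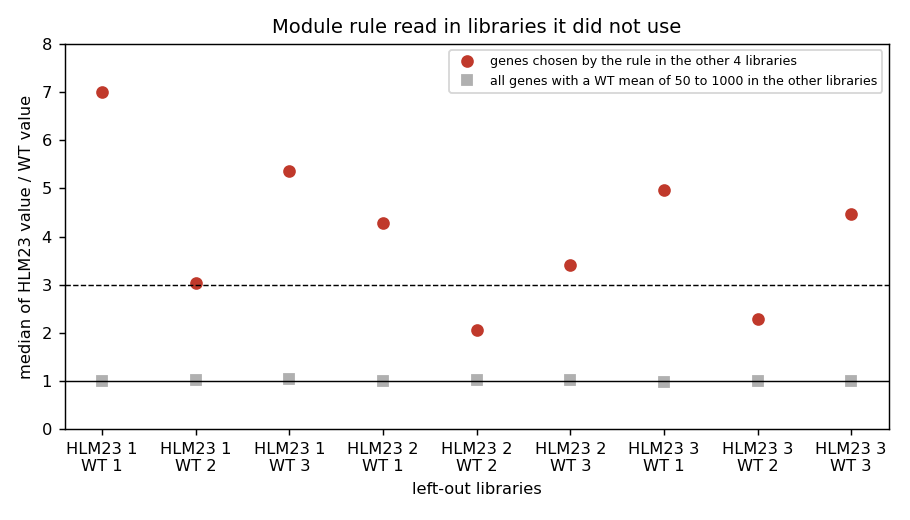
Median ratio of the left-out HLM23 library to the left-out WT library, for each of 9 pairs of left-out libraries. Red circles are genes chosen by the rule in the other 4 libraries and grey squares all genes in the WT range; the circles lie between 2.06 and 6.998, lowest where WT replicate 2 was left out, and the squares between 0.975 and 1.04.

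By position, the 138 genes were spread over all 30 chromosomes, with 1.44 per 100 genes overall. Chromosome 5 held the most, 13 of its 497 genes (2.62%), followed by chromosome 3 with 11 of 527 (2.09%), and chromosomes 28 and 29 held 1 each. No members were direct neighbours, and 1 pair had a single gene between them, on chromosome 3 (386929 to 391201 and 397562 to 401212). The closest pair by distance lay 4119 bases apart on chromosome 14 (698729 to 702601 and 706721 to 709048). The first of these had 2742, 1886 and 2024 normalised reads in HLM23, against 566, 998 and 585 in the WT. The second had 1524, 1000 and 936 in HLM23, against 191, 361 and 247 in the WT.

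No member lay beside the disrupted gene. The nearest to NO06G03670 among the 6 on chromosome 6 (1065759 to 1072658) lay 52027 bases away with 15 genes between, with a mean normalised read count of 627 in HLM23 libraries and 138 in WT libraries. Within 50000 bases of the first or last gene of a chromosome lay 9 members (6.52%), against 6.66% of genes in the WT range.

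The gene models of the members were compared with those of the WT range. Their median listed length was 2080 bases, against 1830 in the range and 1908 over all genes. Bases of the span outside the listed length, a measure of introns as far as that length sums the exons, had a median of 266, against 195 in the range. None were found in 33 members (23.9%), against 32.4% of the range. Over all genes this median was 238 bases and 28.5% had none, which is nearer to the members. On the plus strand lay 63 members (45.7%), against 50.2% of the range, and 20 (14.5%) overlapped another gene, against 13.6% of the range. These are descriptions of the lists without a test.

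The genes directly beside the members were not used by the rule, and were compared with limma's moderated test on log2(value + 1) over all 9452 genes with a mean of at least 1, with Benjamini-Hochberg adjustment at 0.05. Of 274 such neighbours, 56 (20.4%) were higher in HLM23, against a background of 14.5%, and 37 (13.5%) were lower, against a background of 14.3%. Their median log2 fold change was 0.12, against -0.0022 over all genes tested. Without the 21 that overlap a member, 50 of 253 (19.8%) were higher and 35 (13.8%) lower. Neighbours transcribed away from the member on the other strand (divergent) were higher in 20 of 80 cases and lower in 8. Tandem neighbours were higher in 17 of 97 and lower in 11, and convergent neighbours higher in 19 of 97 and lower in 18. These shares were not tested against each other or against the background. The counts by orientation include the 21 overlapping neighbours, of which 15 were divergent, 6 convergent and 0 tandem. How many neighbours passed depended on which library was left out, as did the share of all genes. Without HLM23 replicate 1, 37 (13.5%) were higher and 20 (7.30%) lower, against 9.62% and 8.83% of all genes tested. Leaving out WT replicate 1 gave 32 (11.7%) and 17 (6.20%), against 9.09% and 7.10%, and leaving out WT replicate 3 gave 33 (12.04%) and 16 (5.84%), against 9.19% and 7.11%. Without HLM23 replicate 2 there were 52 (18.98%) higher and 34 (12.4%) lower, against 12.87% and 12.98% of all genes tested. Leaving out HLM23 replicate 3 gave 53 (19.3%) higher and 35 (12.8%) lower, against 14.1% and 14.6%. With WT replicate 2 left out there were 52 (18.98%) higher and 32 (11.7%) lower, against 14.02% and 13.2%. Without both libraries numbered 2 there were 51 (18.6%) higher and 31 (11.3%) lower, against 12.6% and 12.4% of all genes. For the members themselves, all 138 passed the same test at the background of 14.5%, from which nothing is read, as the rule used this contrast.

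A few neighbours are singled out after their values were seen, as the extremes of this list. The largest rise was that of the gene on chromosome 19 (545992 to 547393), with 64.1, 45.8 and 89.97 normalised reads in HLM23, against 1.88, 11.5 and 0 in the WT (limma adjusted p = 0.0020, with a log2 fold change of 4.30 ± 0.76 SE). Its WT values were near the floor, so the size of this fold change depends in part on the 1 added before the log2. The gene overlaps its member by 45 bases at divergent starts. That member (547349 to 549992) had 520, 414 and 623 in HLM23, against 126, 196 and 167 in the WT. On chromosome 3 the gene at 77327 to 79158 had 282, 162 and 198 in HLM23, against 21.6, 47.9 and 24.2 in the WT (limma adjusted p = 0.00055, with a log2 fold change of 2.79 ± 0.36 SE). It overlaps a convergent member (75129 to 78332) by 1006 bases, and since strand handling is not stated, reads of the overlap cannot be assigned to either gene.

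A divergent pair without overlap lay on chromosome 23, where the member at 443088 to 444943 is 350 bases from the gene at 445294 to 446432. This neighbour had 282, 248 and 187 normalised reads in HLM23, against 16.0, 150 and 74.6 in the WT (limma adjusted p = 0.024, with a log2 fold change of 2.03 ± 0.59 SE). It missed the set only by its ratio of 2.97, and the adjusted p was 0.066 without HLM23 replicate 1, 0.063 without WT replicate 3 and 0.13 in the authors' deposited table. In both genes WT replicate 1 was the lowest library and WT replicate 2 the highest of the WT.

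Neighbours could also move the other way. On chromosome 16 the member at 719177 to 720775 had 543, 332 and 418 normalised reads in HLM23, against 92.9, 214 and 112 in the WT. The gene 13 bases from it on the same strand (715515 to 719163) had 929, 899 and 1152 in HLM23, against 3962, 3759 and 4649 in the WT (limma adjusted p = 6.4e-05, with a log2 fold change of -2.06 ± 0.16 SE). The fall of this neighbour was the deepest among all 274, and it had no overlap between the strains.

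**Figure D5:**
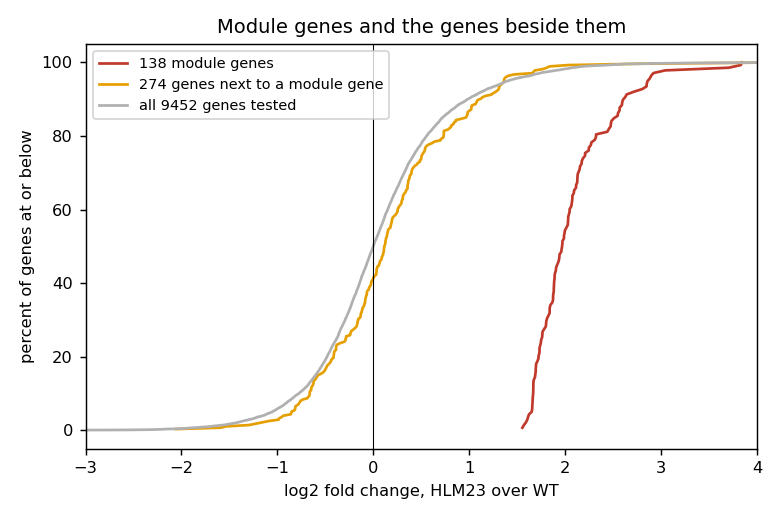
Cumulative percent of genes (vertical) at or below each log2 fold change of HLM23 over WT (horizontal), for the 138 genes of the set, the 274 genes beside them and all 9452 genes tested. The curve of the neighbours lies slightly to the right of that of all genes, with medians of 0.12 and -0.0022, while the set starts at 1.55 by its choice.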

How the data were processed

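Messenger RNA of 3 HLM23 and 3 WT samples was sequenced as paired-end reads, per the labels' protocols. Tools named in the submitters' processing notes are HISAT2, fastp, DESeq2 and featureCounts. No source used here states versions, settings, strand handling, build or annotation. The deposited sample columns hold a signal scaled by the authors: 100% of values come out as whole reads (tolerance 0.001) after division by a factor specific to the library, hence the name normalised read count. A count model was not run, because an automatic test for whole reads refused 2 columns whose step is close to 1. The FPKM columns, log2 fold changes, p-values and adjusted p-values were deposited by the authors and served as alternatives or levels.

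HLM23 and WT were compared on log2(value + 1) with limma (version 3.58.1, R version 4.3.3), with a mean-variance trend, over 9452 genes (100 left out by a mean under 1), checked on simulated data. The spread behind the p-values may be technical. Samples were grouped by title. The members, lists and tests were chosen with earlier results of these data known. Genes to describe were the 5 with the largest ratio, HLM23 mean, widest and narrowest gap, the longest and shortest, and those at the limits; neighbours were added after their values were seen. Functional lists could not be used for want of descriptions, and no sequences of nuclear genes were at hand. Alternatives were other pseudocounts, filters, scalings, limits, thresholds, tools, a replicate block and left-out libraries.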

Additional observations from a re-analysis of the deposited data

How the results depend on the processing

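Another limit of the rule gave another list by construction. There were 405 genes with a ratio limit of 2 (median log2 ratio 1.36, 1.92% of HLM23 reads) and 58 with a limit of 4 (2.20 and 0.411%). A WT mean of 100 to 500 gave 84 genes (0.440% of reads), and one of 25 to 2000 gave 183 (1.14%). Equal library totals gave 109 genes, all among the 138, and 0.697% of reads, and FPKM gave 98, of which 88 were among the 138, and 0.646%. Without both libraries numbered 2 there were 221 genes (1.56%), 125 of them among the 138. Leaving out 1 library gave 111 to 192 genes, a median log2 ratio of 1.80 to 2.02 and 0.670% to 1.33% of HLM23 reads, the most genes without WT replicate 2.

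Over all genes, 1374 were higher and 1356 lower. An adjusted p under 0.01 gave 708 and 595 (7.49% and 6.29% of genes tested). In place of 56 and 37 neighbours there were then 27 (9.85%) and 14 (5.11%). Leaving out 1 library gave 859 to 1331 higher and 671 to 1373 lower, with 32 to 53 and 16 to 35 neighbours and 137 to 138 members called, the lost member being the chromosome 23 gene at 443088 to 444943 without WT replicate 3 (adjusted p = 0.054). Equal library totals gave 1025 higher and 1603 lower, with 45 and 41 neighbours. With the replicate block the counts were 1338 and 1297 (14.2% and 13.7%), with 55 (20.1%) and 34 (12.4%) neighbours. The correlations of deviations between same-numbered libraries, -0.069, -0.11 and 0.15, did not show that the numbers pair the samples, and the block changed no call of a gene described at the limits or among the members. Of 464 values computed for the genes described and those at the limits, 456 stayed on the same side of the threshold with the same sign, and the other 8 fell short of the threshold with the same sign. Count models were not run, for the reason given under processing. Differences in genes with few reads are limited by depth. The cause of these shifts was not tested.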
